A study of Drosophila melanogaster with 2 samples.

Results

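The 93 cytoplasmic ribosomal protein genes of Drosophila melanogaster were examined for peaks of chromatin immunoprecipitation and sequencing (ChIP-seq) of CG32264, the fly member of the Phactr proteins, which bind actin and protein phosphatase 1. The genes were chosen by symbol alone, as the protein-coding genes named RpL, RpS, RpLP or RpSP followed by a digit, plus sta, which encodes the small subunit protein known as RpSA. They were 93 of 13945 protein-coding genes on the 6 main chromosome arms, with 54 in the large subunit and 39 in the small subunit. Among the 5 with names ending in -like, RpLP0-like is the homologue of the yeast ribosome assembly factor Mrt4, and RpL24-like that of the yeast assembly factor Rlp24.

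All larvae carried an inserted transgene for CG32264 with green fluorescent protein at its C terminus, and the fusion was precipitated with an antibody against that tag. Whole larvae in the wandering stage of the third instar, both sexes pooled, gave 2 biological replicates, numbered 1 and 3, of 1 group from 1 transgenic line. Chromatin was sonicated to 200 to 800 bp. No untagged or input library was analysed here, so the values have no background measured in the same way, and since DNA peaks hold no marker of tissue, the labelled source was not checked.

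Each ribosome holds 1 copy of nearly every ribosomal protein, so these genes are expressed together and at high levels in growing larvae. In flies, most of their promoters start transcription at the TCT initiator, a pyrimidine-rich element used in place of the usual initiator, and the TBP relative Trf2 and the factor Dref are known to act at many of them. Loss of 1 copy of many of these genes gives the Minute phenotype of slow development and short bristles.

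A gene was said to have a peak when a summit of the authors' optimal list, the 2546 peaks kept after comparing the replicates, lay within 500 bp of one of its annotated starts. Peaks are ranked by the authors' signal within each list, with rank 1 the strongest. The signal is the authors' own value per peak, without replicates, and scales differ between lists, so ranks are used across lists. Besides the optimal list (signal 61.1 to 956), whole lists of 30000 peaks and background regions were available for the pooled replicates and for each replicate, and their first 2546 peaks are called the top list. The number of reads is not known from peak lists, and the lists do not show that CG32264 was missing where no peak was listed.

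The sequences below show starts of 9 of the 10 strongest members. Each runs from 40 bases before to 20 bases from the annotated start nearest the optimal summit, from the RefSeq sequence of Release 6, in the direction of transcription. Capitals mark the TCT initiator, searched as TCTTTT, whose first and last T may each be a C, on the coding strand with the C of its second position within 10 bases of a start. RpL7, RpS27 and RpS20 hold no such element at the start shown. The last 2, shown for contrast at the start of their canonical transcript, hold it and had no peak.
RpL32, chr3R:30046142-30046201, minus strand: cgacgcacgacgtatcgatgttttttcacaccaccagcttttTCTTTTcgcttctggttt
RpL7, chr2L:10200964-10201023, plus strand: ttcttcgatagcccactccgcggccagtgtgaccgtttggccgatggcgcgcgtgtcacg
RpS27, chr3R:25247495-25247554, minus strand: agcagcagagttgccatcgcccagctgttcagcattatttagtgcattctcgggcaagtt
RpL14, chr3L:8600966-8601025, plus strand: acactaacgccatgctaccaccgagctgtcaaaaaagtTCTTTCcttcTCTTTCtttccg
RpLP0, chr3L:22076052-22076111, plus strand: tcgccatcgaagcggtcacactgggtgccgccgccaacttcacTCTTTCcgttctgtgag
RpS20, chr3R:20822141-20822200, plus strand: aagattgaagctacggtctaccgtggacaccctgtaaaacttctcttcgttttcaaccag
RpL23A, chr3L:1668635-1668694, minus strand: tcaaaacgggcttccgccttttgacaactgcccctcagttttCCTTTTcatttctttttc
RpL34b, chr3R:9401207-9401266, minus strand: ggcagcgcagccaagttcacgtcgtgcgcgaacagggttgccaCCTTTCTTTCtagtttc
RpS28b, chrX:9554583-9554642, plus strand: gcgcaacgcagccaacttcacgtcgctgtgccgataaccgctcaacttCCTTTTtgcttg
RpS3, chr3R:23358772-23358831, plus strand: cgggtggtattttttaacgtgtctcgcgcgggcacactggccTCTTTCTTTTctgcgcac
RpS21, chr2L:2856071-2856130, plus strand: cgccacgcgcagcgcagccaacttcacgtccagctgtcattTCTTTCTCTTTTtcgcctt

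A peak lay at 37 of the 93 genes (39.8%, exact 95% interval 29.8 to 50.5%), where 10.4% of all protein-coding genes had one. In the top list of replicate 1, whether or not also in that of replicate 3, 44 members had a summit (47.3%), against 11.0% of protein-coding genes. In that of replicate 3, counted in the same way, 36 had one (38.7%), against 9.39%. Both top lists held 32 members (34.4%), against 6.29%. All intervals are exact Clopper-Pearson intervals over genes and cover counting error only, not the spread between larvae. No p-value was computed for the members as a list, which was proposed with results of these data known.

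The ribosomal protein genes sat mostly in the middle strength range. Of the 37 members with a peak, 8 were among the strongest 25% of the optimal list, 19 in the next 25% (51.4%), 7 in the third and 3 in the weakest 25%. Of all protein-coding genes with a peak, 27.2% were among the strongest 25% and 24.5% in the next. The median signal was 107 for the members and 92.2 for all protein-coding genes with a peak.

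Going down the pooled list, the members' share stood above that of all protein-coding genes at every rank limit examined. The first 500 peaks held 4 members (4.30%, interval 1.18 to 10.6%, which includes the 2.26% of protein-coding genes). The first 1000 held 20 (21.5% against 4.33%), and the first 5000 held 55 (59.1% against 18.2%). In the whole pooled list 78 members had a summit (83.9%, interval 74.8 to 90.7%), against 45.8% of protein-coding genes. Just past the end of the optimal list, between ranks 2547 and 4000, lay another 16 members. The share of all protein-coding genes between these ranks was not counted, so this number has no background.

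**Figure D1:**
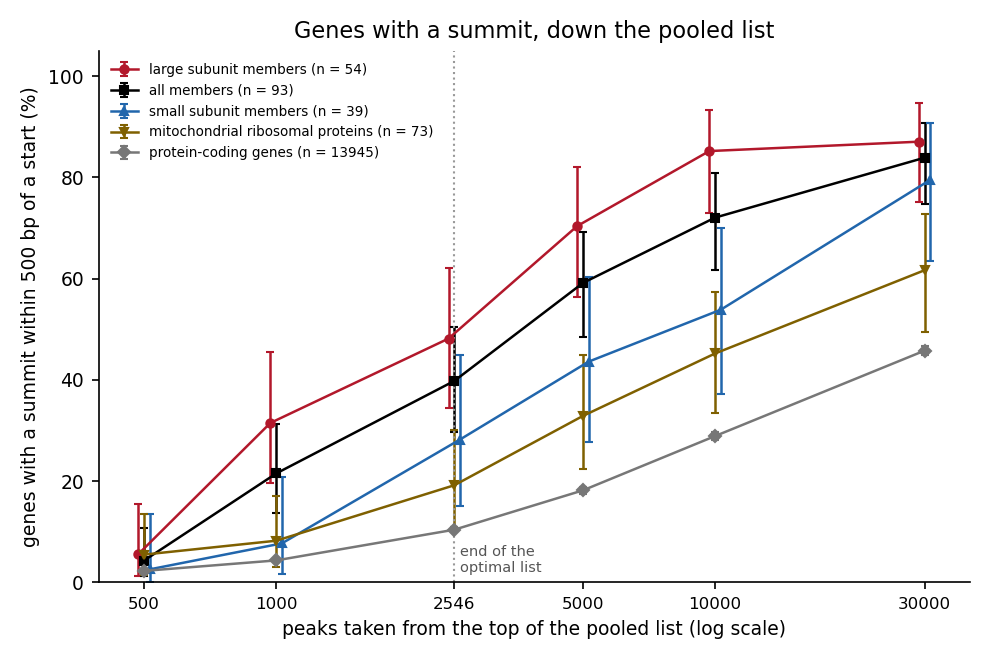
Share of genes with a summit within 500 bp of a start (y axis, percent) when the given number of peaks is taken from the top of the pooled list (x axis, log scale), with exact 95% intervals as bars. Points of the subunits are shifted slightly sideways. Members went from 4.30% at 500 peaks to 83.9% at 30000, and all protein-coding genes from 2.26% to 45.8%.

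The strongest member was RpL32 (FBgn0002626), a large subunit gene widely used as a reference transcript, with rank 163 in the optimal list (signal 242). It had rank 183 in replicate 1 and rank 157 in replicate 3. Its peak was 145 bp wide, while 34 of the 37 members' peaks had the 376 bp of 82.6% of the optimal list. It lies upstream of the nearest RpL32 start, on the side of the opposite start of CG7943. The peak sequence is shown on the strand of RpL32, with the 11 bases centred on the summit in capitals, 81 bp upstream of the start.
RpL32 peak, chr3R:30046164-30046308, minus strand: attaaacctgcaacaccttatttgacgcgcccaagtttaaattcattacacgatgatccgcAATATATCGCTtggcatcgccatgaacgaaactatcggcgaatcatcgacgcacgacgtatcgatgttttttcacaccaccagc

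The next 3 members were also within the first 331 ranks of each replicate list. RpL7, a large subunit gene, had optimal rank 182 (signal 227), with ranks 186 and 277 in replicates 1 and 3. RpS27, a zinc-finger protein of the small subunit, had optimal rank 226 (signal 209), with ranks 207 and 331. RpL14 had optimal rank 327 (signal 180), with ranks 290 and 321. Both replicates thus placed these 4 genes ahead of every other member.

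Between optimal ranks 508 and 784 followed 8 further members, all stronger in replicate 1 by rank. RpLP0, the base of the stalk that binds translation factors, had rank 508, with 424 in replicate 1 and 866 in replicate 3. RpS20 had rank 554, with 483 and 1243. RpL23A, at the exit of the tunnel for the growing peptide, had rank 579, with 523 and 1100. RpL11, which packs the 5S RNA together with RpL5, had rank 623, with 621 and 753. RpL34b had 677, RpS28b 731, RpL34a 746 and RpL13A 784, with replicate 1 ranks from 535 to 698 and replicate 3 ranks from 806 to 1828.

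At the lower edge of the optimal list were RpL3 (rank 2141, signal 67.8), RpS5a (2140, 67.9), RpL26 (1974, 71.2), RpL39 (1869, 73.1) and RpS14b (1771, 75.4). The members nearest outside were RpL8 (pooled rank 2620, signal 60.2), RpL27A (2621, 60.2), RpS12 (2762, 58.6), RpL23 (2872, 57.5) and RpL22 (2905, 56.9). The signal was thus 67.8 at the last member inside and 60.2 at the first outside, so having a peak divides a graded series.

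The replicates ranked the members in a similar but not equal order. Spearman's rho of the ranks was 0.719 over the 72 members with a summit in both whole replicate lists and 0.395 over the 37 with a peak, as a description across genes of the same libraries. It was 0.618 over 4809 protein-coding genes. Every one of the 37 members with a peak had a summit in the top list of replicate 1, and 32 of them had one in that of replicate 3. The 5 found by replicate 1 alone were RpS27A, RpL37A, RpL26, RpS5a and RpL3, of which RpL26 differed most, with rank 1353 in replicate 1 and 9649 in replicate 3. The pooled signal draws on both replicates, so these counts are not independent of the choice of peaks.

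Of the 56 members without a peak, 7 had a summit in the top list of replicate 1 only: RpL8, RpL27A, RpL10Ab, RpL9, RpL5, RpL10 and RpS6. The top list of replicate 3 alone held 4: RpS12, RpL22, sta and RpL31. RpS12, a small subunit protein with a known part in cell competition, ranked 1019 in replicate 3 and 6972 in replicate 1. RpL10Ab showed the reverse, with rank 1934 in replicate 1 and 16753 in replicate 3. The other 45 members without a peak were in neither top list.

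**Figure D2:**
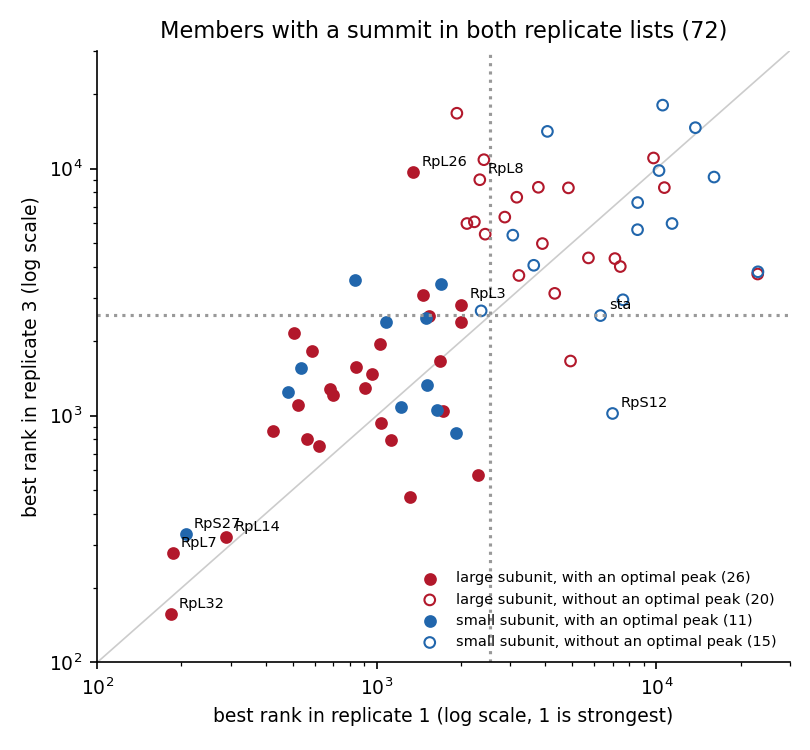
Best rank of each of the 72 members with a summit in both whole replicate lists, in replicate 1 (x axis) and replicate 3 (y axis), both log scales with 1 the strongest. Filled points had a peak in the optimal list, dotted lines mark rank 2546 and the grey line marks equal ranks. RpL32, RpL7, RpS27 and RpL14 stand apart at the lower left, and RpL26 ranks 1353 and 9649.

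Large subunit genes had a peak more often than small subunit genes in these lists, but the interval of the odds ratio included no difference. In the large subunit 26 of 54 had a peak (48.1%, interval 34.3 to 62.2%) and in the small subunit 11 of 39 (28.2%, interval 15.0 to 44.9%). The odds ratio was 2.34 (exact interval 0.908 to 6.33). In the top list of replicate 1 it was 3.23 (1.27 to 8.63) and in that of replicate 3 it was 2.18 (0.842 to 5.88). Within the first 500 pooled peaks were 3 large and 1 small subunit members. Within the first 1000 there were 17 (31.5%) and 3 (7.69%), against 4.33% of protein-coding genes. The first 10000 held 46 (85.2%) and 21 (53.8%), against 28.9%. In the whole pooled list the subunits were closer, with 87.0% (interval 75.1 to 94.6%) and 79.5% (interval 63.5 to 90.7%), against 45.8%.

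Members with a neighbour on the other strand had a peak more often by count. A start of a protein-coding gene on the opposite strand lay within 500 bp of 37 members. Starts that point away from the member and starts that face it were not counted apart. Of the 37 members with an opposite start, 21 had a peak (56.8%, interval 39.5 to 72.9%). Of the 56 members without such a start, 16 had one (28.6%, interval 17.3 to 42.2%). Among all protein-coding genes the shares were 20.7% and 6.42%. Large subunit members had a peak in 17 of 22 cases with an opposite start (77.3%) and in 9 of 32 without (28.1%). Small subunit members had one in 4 of 15 cases with an opposite start (26.7%) and in 7 of 24 without (29.2%).

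Among members with an opposite start the odds ratio of large against small subunit was 8.68 (exact interval 1.68 to 56.7), and among those without it was 0.951 (0.254 to 3.67). This split was made after the values were seen, and the 2 intervals overlap, so a difference between them was not shown. Such pairs of genes share 1 peak, which cannot be assigned to one of them. RpL13 shares its peak with Dref, the gene of the factor known to act at ribosomal protein promoters. RpL28 shares its peak with the translation initiation factor gene eIF1, RpL14 with Nelf-E and RpL7 with Ripalpha. In all, 23 of the 37 members' summits also lay within 500 bp of a start of another gene.

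The nearest start to the summit belonged to the member in 32 of 37 cases. In the other 5 it was that of Neos beside RpL18, 14-3-3zeta beside RpLP0-like, CG3776 beside RpL19, Dref beside RpL13 and CG13690 beside RpLP1. All 5 are large subunit genes by name, and counting a summit for the nearest gene only gave 21 of 54 large and 11 of 39 small subunit members.

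Summits at ribosomal protein genes lay close to the start. The median position was 44 bp upstream of the nearest start (quartiles 81 and 16 bp upstream), with a range from 180 bp upstream (RpLP1) to 24 bp downstream (RpL3). Within 100 bp lay 32 of 37 (86.5%, interval 71.2 to 95.5%), against 459 of 1413 other protein-coding genes with a peak (32.5%, interval 30.05 to 34.996%), whose median was 130 bp upstream. Upstream of the start were 30 of 37 (81.1%) and 85.9% of the others, so the members differed in distance and not detectably in side.

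The closeness was seen in each replicate list and in subsets of the genes. The members' summits in the whole list of replicate 1 lay within 100 bp of a start in 33 of 37 cases, and in that of replicate 3 in 28 of 37. The summits of a member in the 2 replicate lists were 40 bp apart in the median (1 to 112 bp). Among genes with 1 annotated start, 16 of 19 members (84.2%) and 29.1% of other genes had the summit within 100 bp. Among genes without an opposite start the values were 14 of 16 (87.5%) and 27.5%. The 201 bp centred on the summit had a median GC content of 41.3% at the members and 34.8% at the other genes, and the part of base composition in the position was not tested.

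**Figure D3:**
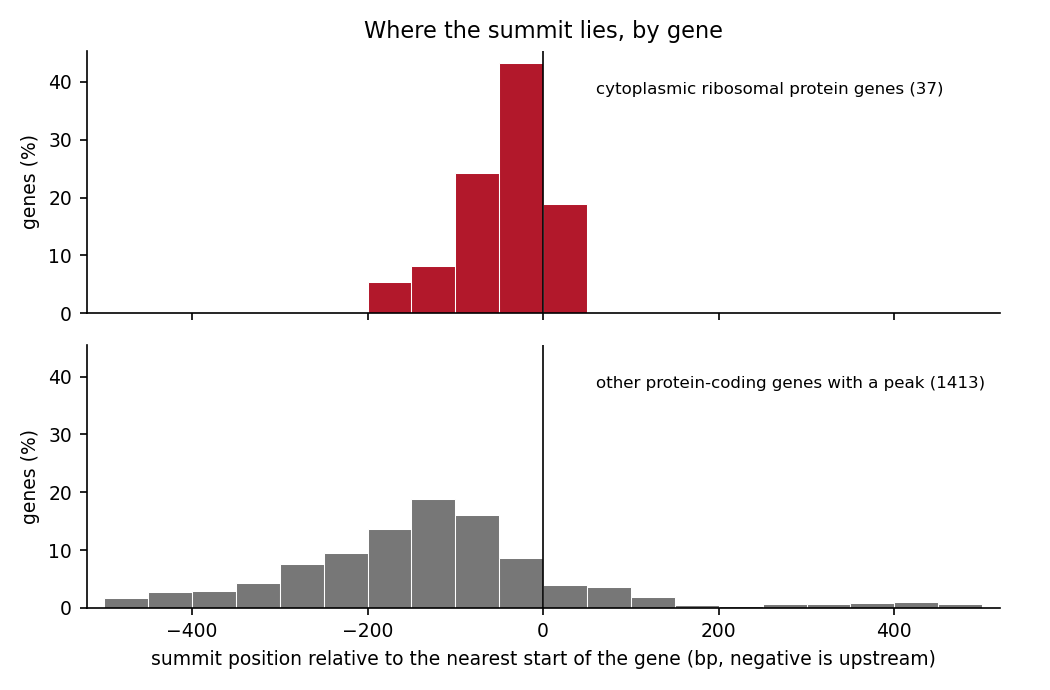
Signed position of the optimal summit relative to the nearest start of the gene, in bins of 50 bp (x axis, bp, negative is upstream), as a percent of genes with a peak (y axis), for the 37 members and 1413 other protein-coding genes. The members fall between 180 bp upstream and 24 bp downstream, and the other genes have their median 130 bp upstream.

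The TCT initiator was found at 75 of 93 members (80.6%), counting any annotated start, and at 4.09% of all protein-coding genes. It was present at 33 of the 37 members with a peak (89.2%) and at 42 of the 56 without. Members that held it had a peak in 44.0% of cases (33 of 75, interval 32.5 to 55.9%) and members that lacked it in 22.2% (4 of 18, interval 6.41 to 47.6%), and these intervals overlap. Other protein-coding genes that held it had a peak in 17.4% of 495 cases (interval 14.1 to 21.0%), below the members that held it. Those that lacked it had one in 9.93% of 13357 cases (interval 9.43 to 10.5%), and these intervals do not overlap. This contrast counts any annotated start. Of all protein-coding genes, those with 2 or more annotated starts had a peak in 18.9% of cases and those with 1 in 7.33%. For the other genes the canonical start alone was not counted, so a link between element and peak outside the members was not shown. At the start of the canonical transcript alone the TCT initiator was found in 62.2% of members with a peak and 57.1% of those without. RpS3 and RpS21 above were shown as members that hold the element and had no peak, so they are examples and no test of the element.

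Other promoter elements were searched on both strands from 250 bp before to 50 bp after each start. The Dref element TATCGATA was found at 29.7% of members with a peak and 30.4% of those without, against 10.2% of all protein-coding genes. The M1BP element GGTCACACT was found at 16.2% and 8.93%, against 6.78%. The E-box CACGTG, a site of the growth regulator Myc, was found at 21.6% and 12.5%, against 5.30%. The GAGA element GAGAGAG was found at 0 of 37 and 1 of 56, against 9.08% of all protein-coding genes and 16.5% of those with a peak. It was also found at 0 of 14 mitochondrial ribosomal protein genes with a peak and 0 of 8 translation factor genes with a peak. The TATA sequence TATAAA was found at 20 of 37 and 28 of 56, near the 51.2% of all genes. A match of letters is not a binding site, and the counts of members are small.

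By place in the ribosome, the small groups of large subunit genes examined had shares that cannot be told from the 48.1% of all large subunit members. Of the stalk genes, RpLP0 and RpLP1 (rank 1148) had a peak, and RpLP2 (pooled rank 3059) and RpL12 (4489) did not. Of the pair that binds the 5S RNA, RpL11 had one and RpL5 (3593) did not. Of the proteins lining the peptide tunnel, RpL4 (1544) and RpL39 (1869) had one and RpL17 (5275) did not. Around the tunnel exit, where chaperones and the signal recognition particle dock, RpL23A, RpL19 (939) and RpL26 had one and RpL35 (5088) and RpL31 did not.

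RpL31 was a case of its own. A summit 4 bp upstream of its start had rank 1366 in replicate 3, but no summit lay within 500 bp in the pooled list or in replicate 1. The nearest pooled summit, 1671 bp away, was far stronger, with rank 48.

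In the small subunit, 0 of 5 genes examined for proteins at the mRNA entry and the decoding site had a peak, a number too small to set apart from the 28.2% of all small subunit members. RpS3 had pooled rank 11358, RpS30 had 11822, RpS2 had 28172, RpS15 had 12867 and RpS23 had 3747. RpS6, the target of S6 kinase downstream of TOR, had pooled rank 3938, with 2362 in replicate 1 and 2653 in replicate 3. The laminin receptor relative sta had pooled rank 3697, with 6312 and 2539. Both genes whose product is a fusion of ubiquitin to a ribosomal protein were near the edge or above it: RpS27A had a peak (rank 1141, with 838 and 3534), and RpL40 had pooled rank 3172, with 3912 and 4969.

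Several fly ribosomal proteins are encoded by more than 1 gene. Of the members, 27 share the stem of their symbol with another member, in 13 families, and 10 of them had a peak (37.04%), beside the 27 of 66 single-copy genes (40.9%). Without the RpLP0 and RpL24 families, whose -like members are the homologues of assembly factors and no copies, it was 7 of 23 in 11 families. The other families were kept by symbol, and whether each of their -like members, RpL7-like among them, is a true copy was not checked. Of all protein-coding genes, 10.4% had a peak. In the whole pooled list, however, a summit was found at 17 of the 27 genes (63.0%, interval 42.4 to 80.6%), 14 of 23 without the RpLP0 and RpL24 families. Single-copy genes had one in 61 of 66 cases (92.4%, interval 83.2 to 97.5%). The share of all protein-coding genes there was 45.8%, which lies within the interval of the 27 genes. How the authors treated reads that match several places is not given here.

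Both copies had a peak in the RpL34 family, where RpL34a and RpL34b had ranks 746 and 677. RpLP0 and the assembly factor gene RpLP0-like had ranks 508 and 903. In 6 families 1 gene had a peak and the rest had none. RpL7 ranked 182, while RpL7-like had no pooled summit and ranks 10681 and 8373 in replicates 1 and 3. RpL24 ranked 940, while RpL24-like had a summit in the window only in replicate 3, at rank 10317. Its nearest replicate 1 summit lay 517 bp away (rank 9371). RpS28b ranked 731, while RpS28a had pooled rank 24942 and RpS28-like no summit within 500 bp in any list. The RpS28a summit lay 428 bp downstream of its start, past the end of the gene of 304 bp. A replicate 3 summit with rank 2261 lay 517 bp from that start, just outside the window.

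RpS14a and RpS14b lie side by side on X with starts at 7933742 and 7934898. RpS14b had a peak (rank 1771, with 1497 and 2491 in replicates 1 and 3), and RpS14a had pooled rank 12457, with 11380 and 5991. The last of these ranks is of a summit 499 bp upstream, at the edge of the window. The replicate 3 summit nearest to the RpS14a start lay 241 bp away, with rank 14648. RpS10b (rank 1542) and RpS5a (rank 2140) had a peak. RpS10a and RpS5b, which are known to be expressed mainly in the germ line, had no summit within 500 bp in any list. For RpS5b this depends on the window: a pooled summit lay 512 bp from its start (rank 10318). A replicate 3 summit lay 509 bp away (rank 7607). In the other 5 families, RpL10A, RpL22, RpL37, RpS15A and RpS19, no copy had a peak, and in each 1 copy had a pooled summit and the other had none.

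**Figure D4:**
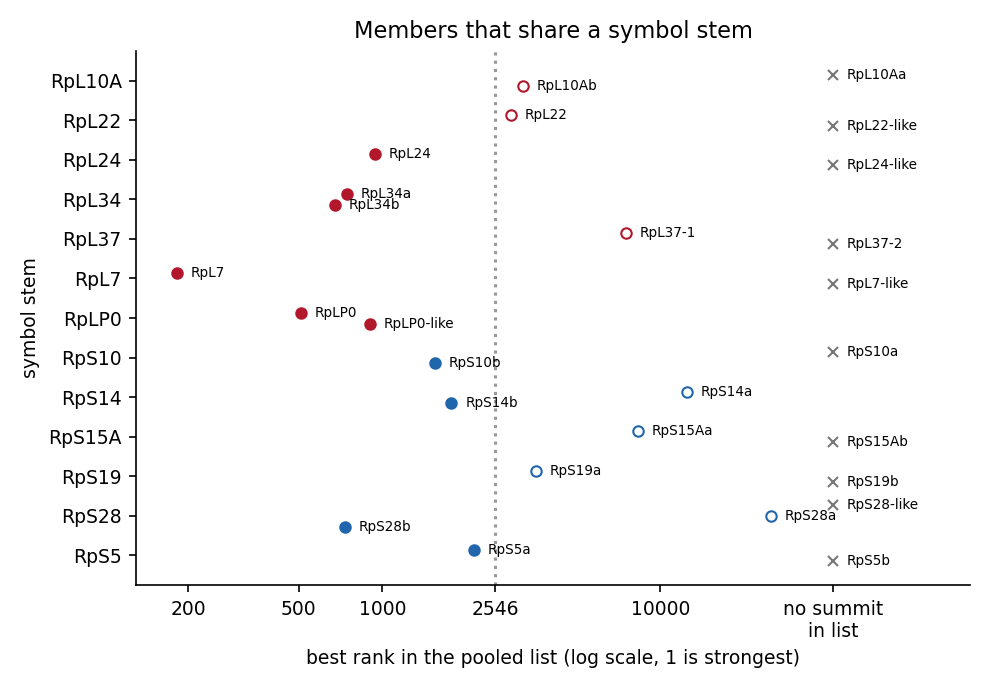
Best rank in the pooled list (x axis, log scale, 1 is the strongest) of the 27 members that share a symbol stem with another, by family (y axis). Filled points had an optimal peak, open points a pooled summit past rank 2546 (dotted line), and crosses no pooled summit. Red marks the large and blue the small subunit, and 10 points are filled, 7 open and 10 crosses.

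In all, 15 members had no summit within 500 bp in the whole pooled list, of which 10 share a symbol stem with another member. Single-copy genes among them were RpL31, RpL36A, RpS18 and RpS26. RpS18 still had rank 2626 in replicate 3, 8 bp from its start, and RpL36A rank 4623 in replicate 1. No summit within 500 bp in any of the 3 whole lists was found at RpL10Aa, RpL22-like, RpL37-2, RpS10a, RpS15Ab, RpS28-like and RpS5b. All of them share a symbol stem with another member.

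Position in the genome and gene structure separated the members little. Peaks lay at 4 of 15 members on X (26.7%, interval 7.79 to 55.1%) and at 33 of 78 on the autosomes (42.3%, interval 31.2 to 54.0%). Of all protein-coding genes, 7.97% on X had a peak, against 10.3 to 11.3% on the arms 2L, 2R, 3L and 3R. RpS3A, the single member on the small chromosome 4, had a peak with rank 1257. Members that host a snoRNA gene, as many ribosomal protein introns do, had a peak in 13 of 29 cases (44.8%) and the rest in 24 of 64 (37.5%). Members with 1 annotated start had one in 19 of 48 cases and those with more in 18 of 45, whereas among all protein-coding genes the shares were 7.33% and 18.9%.

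Genes with related work had a peak less often by count, and the interval of the mitochondrial genes just overlapped that of the cytoplasmic ones. The mitochondrial ribosomal protein genes, which serve the separate ribosome of that organelle, had one in 14 of 73 cases (19.2%, interval 10.9 to 30.1%), and 2 of the 73 held the TCT initiator. Their summits lay within 100 bp of a start in 4 of 14 cases. The translation initiation and elongation factor genes had a peak in 8 of 52 cases (15.4%, interval 6.88 to 28.1%), and 12 of the 52 held the TCT initiator. Their summits lay within 100 bp in 3 of 8 cases. The 8 include eIF1, which shares its peak with RpL28, and eIF6, which is also in the list of assembly genes below.

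Of 21 genes of ribosome assembly and nascent chain handling, 7 had a peak (33.3%, interval 14.6 to 57.0%). The leading one was eIF6, which keeps the subunits apart, with rank 34, 28 in replicate 1 and 75 in replicate 3. It was followed by Ns2, a nucleolar GTPase, with rank 129, and by bic, NHP2, Rack1, pit and Nacalpha between ranks 1393 and 2398. Of 8 genes of factors known at ribosomal protein promoters or in growth control, Trl (rank 771), Mnt (1062) and Dref (1095) had a peak, and BEAF-32 (pooled rank 2716), Trf2 (3840), Max (5383), M1BP (7986) and Myc, without a pooled summit, did not.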

How the data were processed

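The deposited files were the authors' dm6 peak lists of 2 replicates, of the pooled replicates, and the optimal list made by comparing replicates (irreproducible discovery rate), per the deposited notes. The dm3 lists were not used. Each peak has the authors' signal, a −log10 q value and a summit offset, as deposited. The q values entered no comparison. For the aligner, peak caller, thresholds and read depth, the sources used here give nothing.

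Summits were set against starts of the Ensembl annotation BDGP6 (release 115) and the RefSeq sequence of Release 6 with python 3.11.15, pandas 2.3.3 and scipy 1.17.1. A gene took its best-ranked summit within 500 bp of any start, and the position was taken from the nearest start. The counting of positions was checked on simulated starts and summits. Shares have exact Clopper-Pearson 95% intervals, and odds ratios are conditional with exact intervals. No test between samples was possible with 1 group.

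Members, lists and alternatives were chosen with earlier results of these data known. Genes were named by rank (the 12 strongest, the 5 weakest, the 5 nearest outside), by a difference between replicates or copies, by role, or for lack of any summit. RpL10Ab, RpL26, RpS12, RpS18, RpL36A, RpS3A, RpS21 and the partners of shared peaks were named after their values were seen. Alternatives changed the window, start set, list, replicates and members. The values of 1 member are not reported here by name.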

Additional observations from a re-analysis of the deposited data

How the results depend on the processing

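No paired analysis was possible because there was 1 group. Settings with no new value here stayed within the interval of the reported value. Members with a peak were 29.0% (27 of 93) with the stronger 50% of the optimal list, by its own construction of fewer peaks. They ranged from 38.7% to 47.3% with 1 replicate left out. Large subunit members had a peak in 32.0% of cases among members with no start of another gene in the window. The odds ratio of large against small subunit was 1.22 there, and with RpLP0-like left out it was 2.25. Splits made after the values were seen gave, with and without an opposite start, 56.8% and 28.6% of members, 77.3% and 28.1% of large subunit members, and odds ratios of 8.68 and 0.951, the latter in the reverse direction. Counting a summit for the nearest gene only gave 1.61.

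The share of all protein-coding genes with a peak was 8.25% with a window of 250 bp, 12.6% with 1000 bp, 5.37% with the stronger 50%, 6.16% with peaks that overlap a top peak of both replicates, 8.73% with the most 5′ start, 7.59% with the nearest gene only and 6.47% with the peak interval over a start. It ranged from 9.39% to 11.0% with 1 replicate left out. The TCT initiator was at 62.2% of members with a peak with the canonical start only. Without replicate 1, 5 members fell past rank 2546 and 4 came above it, among them RpL31, which has no pooled summit, and without replicate 3, 7 came above it. The cause of these differences was not tested.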
